A study of Mus musculus with 6 samples.

Results

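The proteasome subunit genes of the lumbar spinal cord were taken by name, as gene symbols that begin with Psma to Psmg and a digit. The rule found 50 of the 52513 genes in the expression table, after 4 rows named as pseudogenes were left out. Those 4 rows were at 0.20 FPKM or less in every library. Of the 50 genes, 49 encode parts, activators or assembly factors of the proteasome, and Psmc3ip, a partner protein of meiotic recombination, matched by its name alone and is given apart. The 49 were sorted by role into 14 genes of the constitutive 20S core (7 of the alpha ring and 7 of the beta ring), 3 genes of the immunoproteasome, 17 genes of the 19S regulatory cap, 7 assembly chaperones, 6 genes of other activators and a regulator, and 2 core subunits known from testis or thymus.

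The proteasome degrades proteins that carry ubiquitin chains. Its 20S core is a barrel in which outer alpha rings close the entrance and inner beta rings hold the peptidase sites, and the 19S cap binds ubiquitin, removes it, unfolds the substrate and feeds it into the barrel. Interferon-inducible beta subunits can take the place of the catalytic ones to form the immunoproteasome, which produces peptides for class I antigen presentation. In neurons the proteasome is known for turning over synaptic proteins, and its genes are commonly transcribed together in balanced amounts.

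RNA had been sequenced from lumbar cord (L4-L5) of mice with genotype WT that were given intrathecal injections for 7 days. The morphine group (10 µg in 10 µL) and the saline group each had 3 libraries. The labels used here name no strain, sex or age, and no allele beyond WT. The sample descriptions carry runs of numbers, but whether a library pooled animals is not stated, so p-values measure only the spread between these libraries. Values are FPKM, fragments per kilobase of transcript and per 1 M mapped fragments, as the authors made them.

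Depth, estimated from the steps between low FPKM values, came to 19.9, 17.8 and 18.6 M fragments in morphine 1, 2 and 3 and to 21.5, 26.1 and 21.2 M in saline 1, 2 and 3. Pearson's r between any pair of libraries, taken over tested genes as a description, was 0.978 to 0.990. The neuronal gene Snap25 (1643 ± 115 FPKM in morphine and 1618 ± 158 in saline, SD, n = 3 each) and the myelin gene Mbp marked the tissue as neural, while 4 sensory ganglion markers, led by Trpv1 and Avil, summed to 0.27 FPKM or less in morphine and 0.31 or less in saline. Motor neuron markers varied within both groups. Their sum over 7 genes, led by Prph and Chodl, was 44.8, 134 and 15.9 FPKM in morphine 1, 2 and 3, against 148, 134 and 24.8 FPKM in saline 1, 2 and 3, so that morphine 2, saline 1 and saline 2 stood above the other 3 libraries. In RNA from whole tissue, fewer cells of a type and less RNA per cell cannot be told apart.

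All 14 constitutive core genes were abundant in the lumbar cord. Their mean levels ran from 61.3 FPKM (Psma5) to 266 FPKM (Psmb4) in morphine and from 57.8 FPKM (Psma2) to 219 FPKM (Psmb6) in saline. The cap genes lay between 26.3 and 263 FPKM in morphine and between 28.2 and 224 FPKM in saline, with the ATPase Psmc5 highest and the lid gene Psmd11 lowest in both groups. Assembly chaperones and other activators were at 4.60 to 42.7 FPKM in morphine and 4.21 to 36.5 FPKM in saline. FPKM is scaled to length, so these levels can be set side by side.

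Morphine was compared with saline over the 14614 genes that reached 1 FPKM in 3 or more libraries, by limma on log2(FPKM + 1), and 48 of the 50 members were among them. The series title concerns morphine tolerance, and the comparison sets the transcripts of treated cord against those of vehicle-injected cord. At an adjusted p under 0.05, 1 member rose and 0 fell, where the background over all tested genes was 0.944% higher and 0.561% lower. Without adjustment, 13 of 48 members (27.1%) had p under 0.05 in limma's test, near the 22.3% of all tested genes. Of the 13, 12 were higher and 1 (Psmd2) was lower, where all tested genes had 11.2% higher and 11.1% lower at that p. The 3 morphine values all lay above the 3 saline values in 14 of 48 members (29.2%), against 13.0% of all tested genes, and all lay below in 2 of 48 (4.2%), against 15.7%. A log2 fold change above 0 was found in 36 of 48 members, beside 6849 of 14614 tested genes.

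The median log2 fold change over the 48 members was 0.10, beside -0.02 over all tested genes. FPKM over all genes summed to 741145, 722161 and 720234 in morphine 1, 2 and 3. In saline 1, 2 and 3 the sums were 664464, 670280 and 662470, all below those in morphine. TPM scaling brings each library to the same total. Under it the median was -0.02 over the members and -0.13 over all tested genes. By part, the median was 0.14 in the core, 0.31 in the immunoproteasome and 0.02 in the cap. The immunoproteasome median was the value of 1 gene, Psmb10, with Psmb8 at -0.22 and Psmb9 at 0.39. With TPM the 3 medians were 0.02, 0.19 and -0.11, and after quantile normalization 0.07, 0.27 and -0.03, so the cap median changed sign under both and the other 2 kept theirs. The members and their classes were chosen with earlier results of these data known, and these medians carry no test.

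**Figure D1:**
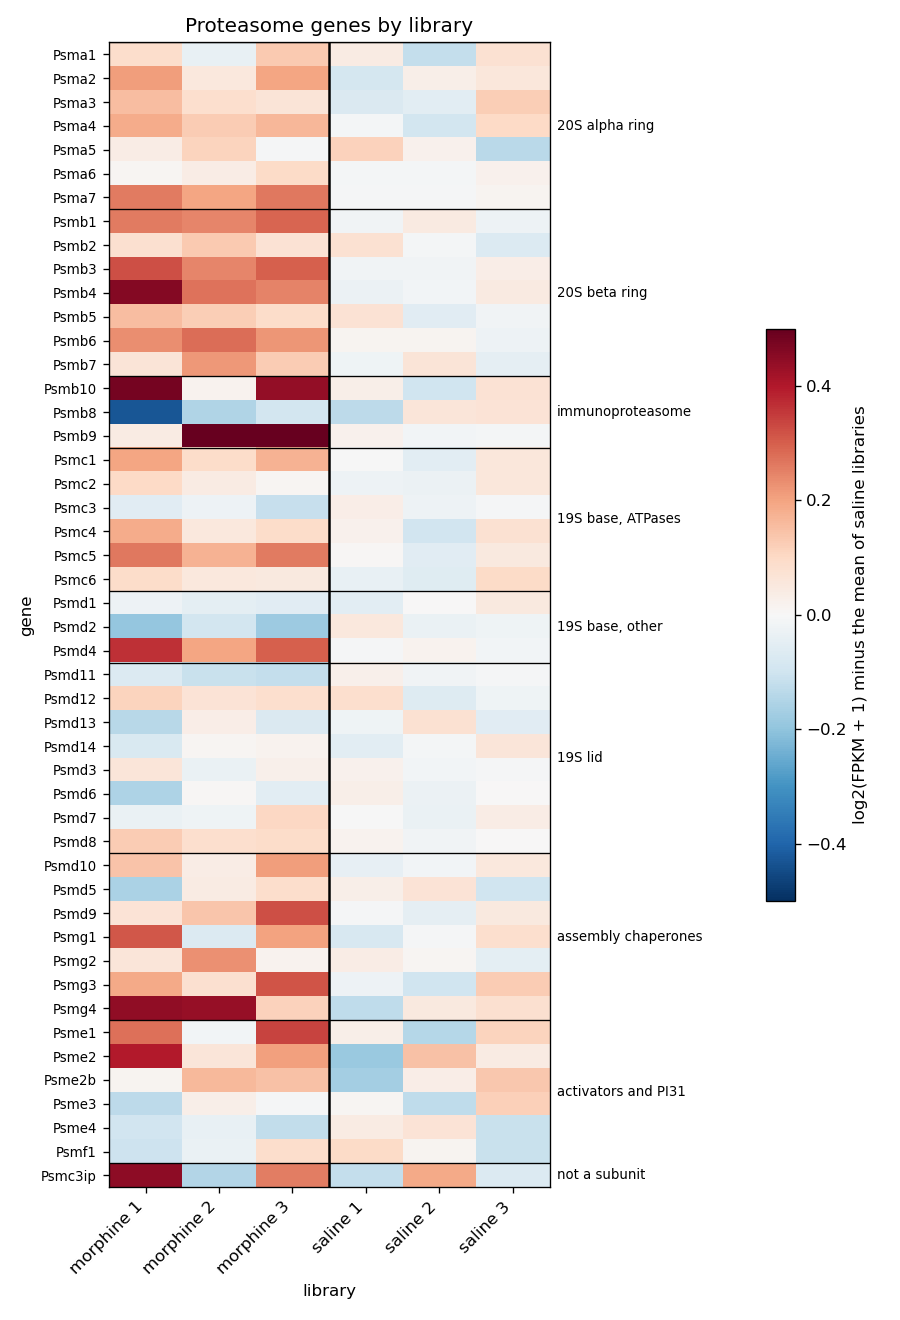
Level of the 48 tested genes in each library, as log2(FPKM + 1) minus the gene's mean over the 3 saline libraries (colour, drawn to ±0.5), with rows grouped by role and morphine libraries left of the line. The beta ring rows are the most evenly red in all 3 morphine libraries, lid rows are mostly pale, and the 3 immunoproteasome rows differ from each other.

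Within the beta ring, Psmb3 was the member that passed the test. Psmb3 (ENSMUSG00000069744, chr11:97703399-97713500, plus strand of mm10) encodes a non-catalytic beta subunit. It was at 160.4, 152 and 158 FPKM in morphine 1, 2 and 3, against 126, 127 and 131 FPKM in saline 1, 2 and 3. The lowest morphine value therefore stood 20.8 FPKM above the highest saline value, more than the range within either group. The means were 157 ± 4.23 FPKM in morphine and 128 ± 2.73 FPKM in saline (SD, n = 3 each), a ratio of 1.22, with a log2 fold change of 0.29 (SE 0.05, 95% interval 0.17 to 0.40, limma adjusted p = 0.0465). Its log2 fold change was 0.16 to 0.31 over the 15 other settings that were tried. Filters, the intensity trend and the replicate block alone cannot alter a fold change, and bear on its p only. Its adjusted p ran from 0.0371 to 0.168 and stayed under 0.05 in 3 of the 15 settings. It was 0.154 without morphine 1, 0.142 without morphine 3, and 0.168, 0.161 and 0.105 without saline 1, 2 and 3.

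Other beta genes missed the threshold. Psmb1, also non-catalytic, was at 190 ± 3.14 FPKM in morphine and 158 ± 4.40 FPKM in saline (log2 fold change 0.26, limma adjusted p = 0.0507). Psmb6, which carries the caspase-like peptidase site, was at 257, 266 and 255 FPKM in morphine and at 221, 221 and 215 FPKM in saline (log2 fold change 0.24, limma adjusted p = 0.0535). Psmb4, the most abundant beta transcript in morphine, was at 291, 255 and 251 FPKM in morphine and at 207, 209 and 218 FPKM in saline. Its log2 fold change was 0.33 (SE 0.07, limma adjusted p = 0.0616), and morphine 1 stood above the other 2 morphine libraries. In each of these 3 genes the groups did not overlap.

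The genes of the remaining catalytic sites differed less. Psmb5, the chymotrypsin-like subunit, was at 134, 131 and 128 FPKM in morphine and at 126, 115 and 119 FPKM in saline (log2 fold change 0.12, 95% interval -0.01 to 0.25, limma adjusted p = 0.245). Its groups did not overlap, but by 1.60 FPKM only, and its value with TPM was -0.005. Psmb7, the trypsin-like subunit, was at 171, 190.4 and 179 FPKM in morphine and at 161, 171 and 159 FPKM in saline (log2 fold change 0.13, limma adjusted p = 0.244), where morphine 1 and saline 2 overlapped. Psmb2 had the largest p of the ring, at 90.5 ± 1.98 FPKM in morphine and 84.8 ± 4.24 FPKM in saline (limma adjusted p = 0.374). Groups that did not overlap were thus found in 5 of the 7 beta genes, all with morphine higher, against 13.0% of all tested genes. Psmb7 shares 405 nt of exonic sequence with Nek6 on the opposite strand, and the sources used here do not say if the counting used strand.

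Promoters of 2 beta genes with separated groups are shown, Psmb3 because it passed and Psmb6 as a catalytic gene whose window holds an antioxidant response element core. This core (TGACNNNGC) is bound by Nfe2l1, the transcription factor that raises proteasome genes when degradation is blocked. Sequences are from RefSeq (GRCm38.p6), 250 bases before to 50 after the annotated start, 5′ to 3′, with capitals at matches to any of 5 motifs searched on both strands: TGACNNNGC, the interferon-stimulated element (GAAA, any 2 bases, then GAAA), the interferon gamma activated site TTCNNNGAA, the CCAAT box, and the heat shock element GAANNTTC. A base may belong to more than 1 match. The Psmb3 window is chr11:97703184-97703483 and the Psmb6 window chr11:70525107-70525406, both on the plus strand.
Psmb3: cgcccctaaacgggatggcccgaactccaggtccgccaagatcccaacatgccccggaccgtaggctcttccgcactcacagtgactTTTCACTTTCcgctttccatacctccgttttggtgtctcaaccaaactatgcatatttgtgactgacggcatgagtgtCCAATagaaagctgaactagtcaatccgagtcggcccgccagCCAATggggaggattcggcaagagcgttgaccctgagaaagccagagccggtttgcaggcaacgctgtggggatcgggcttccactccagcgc
Psmb6: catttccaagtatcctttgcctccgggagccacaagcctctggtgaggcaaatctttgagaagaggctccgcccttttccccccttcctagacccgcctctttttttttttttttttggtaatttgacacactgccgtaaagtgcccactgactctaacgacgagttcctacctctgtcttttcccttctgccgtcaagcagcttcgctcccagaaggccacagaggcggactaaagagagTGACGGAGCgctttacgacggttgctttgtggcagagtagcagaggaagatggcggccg
The capitals in Psmb3 are 1 interferon-stimulated element on the minus strand and 2 CCAAT boxes, and those in Psmb6 are the antioxidant response element core. Of 42 members with a promoter in the table, 6 (14.3%) held TGACNNNGC, against 14.0% of 27025 genes with promoters of this length. The interferon-stimulated element was in 5 (11.9%) against 3.99%, TTCNNNGAA in 3 (7.1%) against 9.55%, CCAAT in 15 (35.7%) against 41.1%, and GAANNTTC in 3 (7.1%) against 9.04%. The 5 members with the interferon-stimulated element were Psmb3, Psmd4, Psmd9, Psme1 and Psmg4. A match is only a match of letters.

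The alpha ring showed the same sign with smaller values. All 7 genes had a log2 fold change above 0, between 0.05 and 0.24 with a median of 0.10, although the median was -0.03 with TPM, where 4 of the 7 were below 0, and Psma5 and Psma6 were also below 0 after quantile normalization or with the length trend removed. Psma7 led, at 207, 199 and 208 FPKM in morphine, against 172, 172 and 174 FPKM in saline. Its groups were separated by more than the range within either, with a log2 fold change of 0.24 (SE 0.05, limma adjusted p = 0.0547). Psma4 was at 122 ± 2.52 FPKM in morphine and 109 ± 7.25 FPKM in saline, without overlap (log2 fold change 0.16, limma adjusted p = 0.192). Psma5 had the largest p, at 60.8, 64.1 and 59.1 FPKM in morphine and 64.2, 60.2 and 53.8 FPKM in saline (limma adjusted p = 0.754). Psma1, Psma2, Psma3 and Psma6 overlapped between groups and had adjusted p values of 0.25 to 0.67. The alpha genes thus had groups without overlap in 2 of 7 cases (28.6%), both with morphine higher, against 13.0% of all tested genes.

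**Figure D2:**
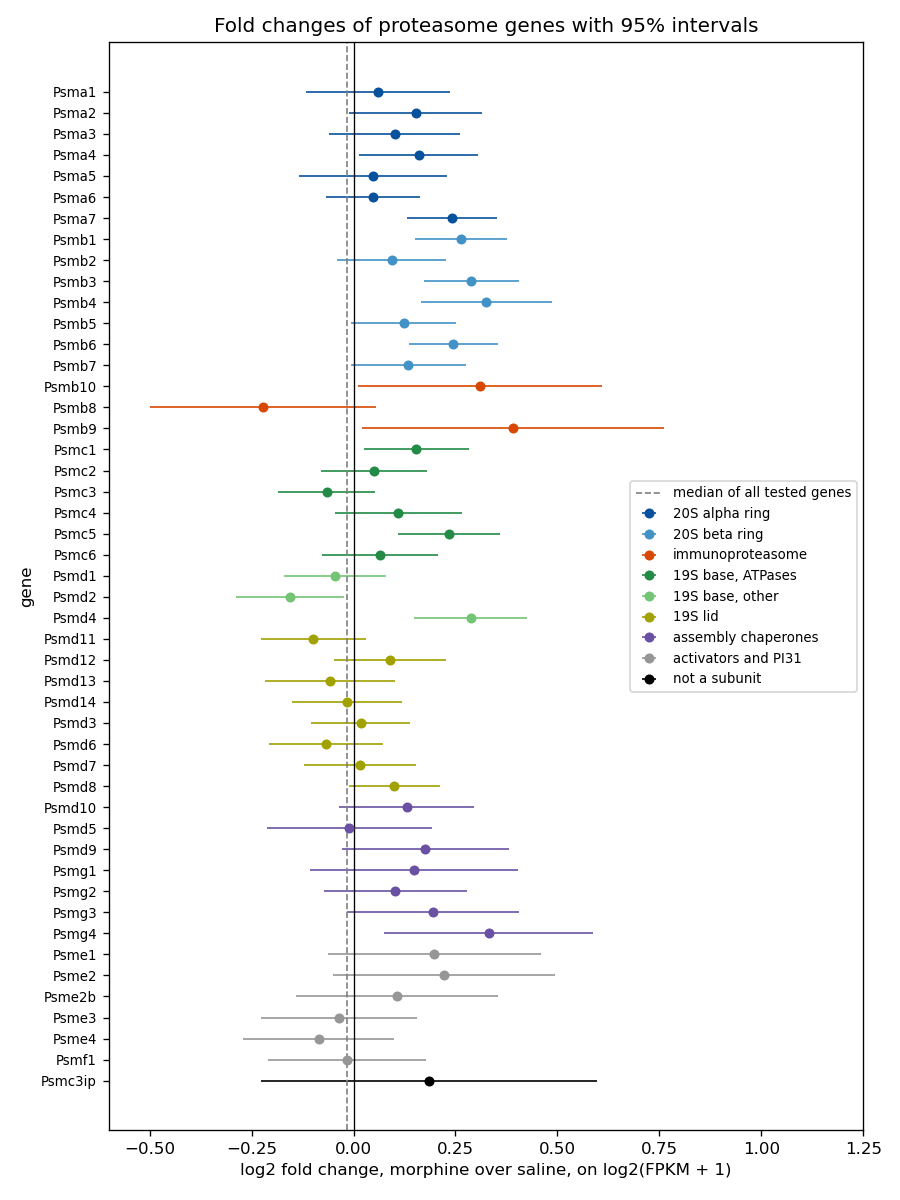
Log2 fold change of each tested gene, morphine over saline on log2(FPKM + 1), with its 95% interval from limma, coloured by role. The 14 core genes lie at 0.05 to 0.33, and the lid genes taken by name at -0.10 to 0.10. The immunoproteasome genes have the widest intervals of the core subunits.

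The immunoproteasome genes did not move together. Psmb10, the inducible counterpart of Psmb7, was the abundant one, at 65.9, 47.6 and 64.2 FPKM in morphine and 48.0, 43.8 and 49.6 FPKM in saline. Morphine 2 lay within the saline range. The log2 fold change was 0.31 (SE 0.13, 95% interval 0.01 to 0.61, limma adjusted p = 0.209). Without morphine 2 it was 0.46 (limma adjusted p = 0.0347, within a range of 0.0347 to 0.464 over the other settings). That fit called 531 of 14614 tested genes higher. Morphine 2 is the morphine library with high motor neuron markers. Among the 3 libraries high in them Psmb10 was at 47.6 FPKM in morphine, against 48.0 and 43.8 FPKM in saline, and among the 3 low ones at 65.9 and 64.2 FPKM in morphine, against 49.6 FPKM in saline. The part of motor neuron content in this was not tested.

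Psmb8 and Psmb9, the counterparts of Psmb5 and Psmb6, were near the low end of detection. Psmb8 was at 3.12, 3.99 and 4.20 FPKM in morphine and 4.06, 4.77 and 4.81 FPKM in saline, with overlap (log2 fold change -0.22, SE 0.12, limma adjusted p = 0.316). Its log2 fold change was -0.12 without morphine 1 and -0.35 with TPM. It stayed below 0 under every other setting tried in which it was tested, of which filters, the intensity trend and the replicate block cannot alter it. Psmb9 was at 2.02, 3.43 and 3.27 FPKM in morphine and 1.98, 1.91 and 1.92 FPKM in saline. Its groups did not overlap, yet morphine 1 differed from the highest saline value by 0.04 FPKM only, and the gene did not pass (log2 fold change 0.39, SE 0.16, limma adjusted p = 0.203). Depending on which annotated transcript the fragments came from, Psmb9 rested on 9 to 163 fragments a library in morphine and 9 to 133 in saline, which bounds the counts behind these values. Psmb9 also shares 212 nt of exonic sequence with Tap1 on the opposite strand, which was at 1.56 to 1.93 FPKM in morphine and 1.66 to 1.87 FPKM in saline.

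Psmb8 (chr17:34197721-34201454, plus strand) and Psmb9 (chr17:34181987-34187764, minus strand) both lie in the major histocompatibility region. Their promoter windows, chr17:34197945-34198244 and chr17:34187281-34187580 on the same strands around the RefSeq start, are shown because both genes are interferon-inducible and had opposite signs here. Both windows lie inside the gene spans given above, so sequence before the outermost annotated start of each gene was not searched.
Psmb8: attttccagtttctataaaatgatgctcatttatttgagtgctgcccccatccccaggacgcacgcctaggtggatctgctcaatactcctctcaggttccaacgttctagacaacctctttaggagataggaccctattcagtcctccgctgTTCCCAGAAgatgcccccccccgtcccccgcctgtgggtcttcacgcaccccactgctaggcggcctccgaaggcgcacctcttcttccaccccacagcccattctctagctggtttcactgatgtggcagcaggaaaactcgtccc
Psmb9: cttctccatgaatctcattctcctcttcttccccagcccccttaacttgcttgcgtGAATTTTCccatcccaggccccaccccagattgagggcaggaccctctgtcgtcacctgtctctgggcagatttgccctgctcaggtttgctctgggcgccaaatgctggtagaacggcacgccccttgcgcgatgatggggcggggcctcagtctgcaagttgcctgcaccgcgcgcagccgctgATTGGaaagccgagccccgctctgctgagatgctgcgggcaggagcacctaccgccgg
The capitals are an interferon gamma activated site in Psmb8, and a CCAAT box on the minus strand and a heat shock element in Psmb9. The window of Psmb10 held none of the 5 motifs.

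Each inducible transcript was set against the constitutive subunit that it replaces. The Psmb8/Psmb5 ratio was 0.0233, 0.0306 and 0.0328 in morphine, against 0.0321, 0.0414 and 0.0406 in saline, so it was low in both groups, and morphine 3 and saline 1 overlapped. The Psmb9/Psmb6 ratio was 0.0079, 0.0129 and 0.0128 in morphine, against 0.0090, 0.0087 and 0.0089 in saline. The Psmb10/Psmb7 ratio was 0.385, 0.250 and 0.359 in morphine, against 0.297, 0.256 and 0.312 in saline. In an exact two-sided permutation test of each ratio, p was 0.2, 0.4 and 0.5, and 0.5 for all 3 after Benjamini-Hochberg adjustment. With 3 libraries against 3 the smallest p is 0.1.

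**Figure D3:**
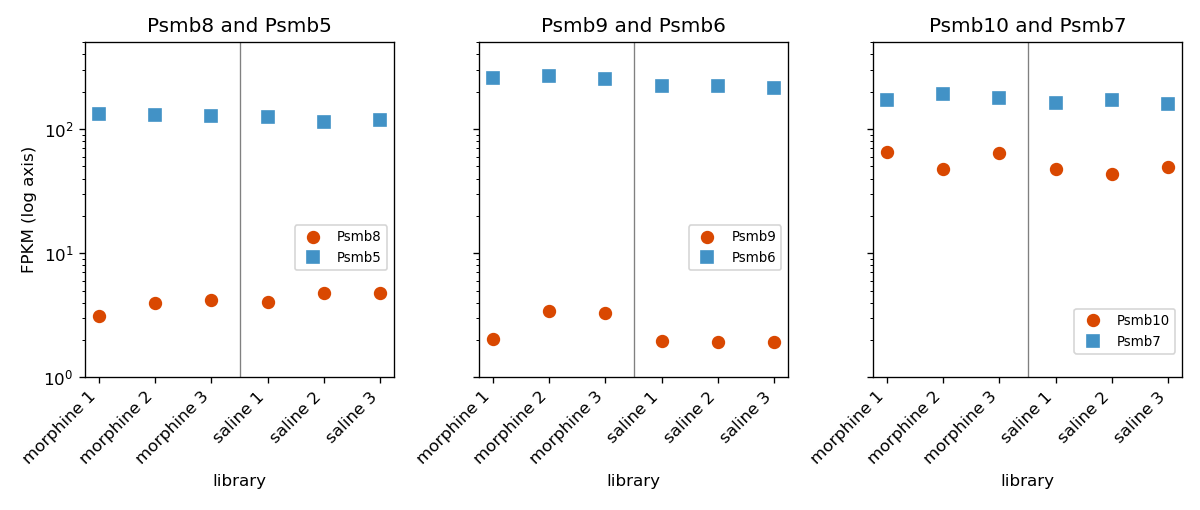
FPKM in each library, on a log axis, of the 3 immunoproteasome genes (circles) and the constitutive genes they replace (squares), with morphine libraries left of the line. Psmb8 and Psmb9 lie at 1.91 to 4.81 FPKM in all 6 libraries, well under Psmb5 and Psmb6, while Psmb10 lies at 43.8 to 65.9 FPKM.

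A list of genes of class I presentation and interferon response gave 0 calls among 9 tested of 10 listed, with 0 of 9 at an unadjusted p under 0.05 in limma's test (22.3% of all tested genes) and a median log2 fold change of -0.01. Irf1, an interferon-induced transcription factor, was at 2.36 ± 0.551 FPKM in morphine and 2.85 ± 0.0252 FPKM in saline (adjusted p = 0.382). H2-D1, a class I heavy chain gene with close relatives in its family, was at 151 ± 38.9 FPKM in morphine and 169 ± 19.96 FPKM in saline (adjusted p = 0.599). Microglia markers differed in sign. Aif1 was at 13.5 ± 3.20 FPKM in morphine and 9.43 ± 1.35 FPKM in saline, with overlap (log2 fold change 0.46, limma adjusted p = 0.171), while Cx3cr1 was at 0.06 and P2ry12, Tmem119, Csf1r, Itgam and C1qa lay between -0.17 and -0.06 on the log2 scale. C1qa was at 46.7 ± 5.49 FPKM in morphine and 48.7 ± 3.89 FPKM in saline (adjusted p = 0.740). The 7 leukocyte markers, led by S100a8 and S100a9, summed to 1.88 to 3.59 FPKM in morphine and 4.33 to 6.48 FPKM in saline. S100a8 and S100a9, the 2 that were tested, had log2 fold changes of -0.84 and -0.70 (limma adjusted p = 0.0845 and 0.21). The T cell genes Cd3e and Cd3g were at 0.07 FPKM or less in morphine and 0.12 FPKM or less in saline.

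The testis subunit Psma8 and the thymus subunit Psmb11 were below the level set for testing. Psma8 was at 0.14, 0.30 and 0.11 FPKM in morphine and 0.19, 0.16 and 0.16 FPKM in saline, and Psmb11 was at 0.00, 0.03 and 0.03 FPKM in morphine and 0.00, 0.01 and 0.01 FPKM in saline. Fitted without the filter, their limma adjusted p was 0.944 and 0.753.

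The cap genes split by subunit. In the ATPase ring of the base, which unfolds substrates, Psmc5 was at 269, 253 and 268 FPKM in morphine, against 225, 215 and 231 FPKM in saline. Its groups did not overlap (log2 fold change 0.23, SE 0.05, limma adjusted p = 0.0672). Psmc1 was likewise without overlap, at 180 ± 6.93 FPKM in morphine and 162 ± 6.07 FPKM in saline (adjusted p = 0.164). Psmc2 had the largest p of the ring, at 79.6, 76.3 and 74.7 FPKM in morphine and 72.7, 72.6 and 77.2 FPKM in saline (limma adjusted p = 0.624). Psmc4 and Psmc6 overlapped between groups with log2 fold changes of 0.11 and 0.07. Psmc3, at 122 ± 3.98 FPKM in morphine and 128 ± 2.78 FPKM in saline, was the ATPase below 0 (log2 fold change -0.07), and shares 215 nt of exonic sequence with Slc39a13 on the opposite strand.

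Among the other base subunits, Psmd4 and Psmd2 lay on opposite sides. Psmd4, a ubiquitin receptor, was at 135, 120 and 128 FPKM in morphine, against 104, 106 and 103 FPKM in saline (log2 fold change 0.29, SE 0.06, limma adjusted p = 0.0584). Psmd2, the scaffold that docks shuttle proteins and the deubiquitinase Usp14, was at 72.4, 77.7 and 73.0 FPKM in morphine, against 86.1, 81.0 and 81.8 FPKM in saline. Its groups did not overlap, and its log2 fold change was -0.16 (SE 0.06, limma adjusted p = 0.166). With TPM scaling it was -0.28 with an adjusted p of 0.0442, within a range of 0.0442 to 0.408 over the other settings. That scaling moved the median log2 fold change over all tested genes from -0.02 to -0.13, and 853 of 14614 genes were called lower under it. Psmd1, another scaffold of the base, was at 55.3 ± 0.653 FPKM in morphine and 57.0 ± 2.06 FPKM in saline (adjusted p = 0.658), and shares 301 nt with the same-strand gene Gm21972.

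The lid genes taken by name, among them the deubiquitinase Psmd14 and its partner Psmd7, showed little difference. These 8 genes had log2 fold changes of -0.10 to 0.10, 4 above and 4 below 0. In limma's test 0 of 8 had an unadjusted p under 0.05, against 22.3% of all tested genes. Sem1, a small lid subunit outside the name rule, had a log2 fold change of 0.22 (limma unadjusted p = 0.00866, adjusted p = 0.0977). Within the 8, Psmd8 had the smallest p, at 83.7, 81.3 and 81.8 FPKM in morphine and 77.5, 75.7 and 76.8 FPKM in saline. Its groups did not overlap (log2 fold change 0.10, limma adjusted p = 0.269). Psmd7 had the largest, at 79.1, 79.8 and 86.9 FPKM in morphine and 80.7, 79.0 and 83.1 FPKM in saline (adjusted p = 0.896). Psmd14 was at 81.4 ± 2.89 FPKM in morphine and 82.3 ± 3.40 FPKM in saline, with a 95% interval of -0.15 to 0.12 on the log2 scale. Psmd11 was the lid gene with all morphine values below saline, at 26.3 ± 0.522 FPKM in morphine and 28.2 ± 0.428 FPKM in saline (adjusted p = 0.333). Psmd3, Psmd6, Psmd12 and Psmd13 overlapped between groups, and Psmd13 shares 342 nt with Sirt3 on the opposite strand.

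Core and cap could be compared inside each library, where a scaling factor cancels apart from the pseudocount. The mean log2(FPKM + 1) of the 14 core genes less that of the 17 cap genes was 0.67, 0.65 and 0.66 in morphine 1, 2 and 3, against 0.53, 0.54 and 0.52 in saline 1, 2 and 3. The 2 ranges did not overlap, and the gap between them was wider than the range within either group. Between beta ring and lid the difference of levels was 1.42, 1.38 and 1.36 in morphine, against 1.17, 1.19 and 1.16 in saline. Sem1, outside the name rule, is in neither the cap nor the lid here. The mean log2 fold change of the core exceeded that of the cap by 0.13, also with TPM, by 0.10 after quantile normalization or with the length trend removed, and by 0.12 to 0.13 without any 1 library. Among the 3 libraries high in motor neuron markers the core-less-cap level was 0.65 in morphine, against 0.53 and 0.54 in saline, and among the 3 low ones it was 0.67 and 0.66 in morphine, against 0.52 in saline. These are descriptions of chosen members and were given no p.

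**Figure D4:**
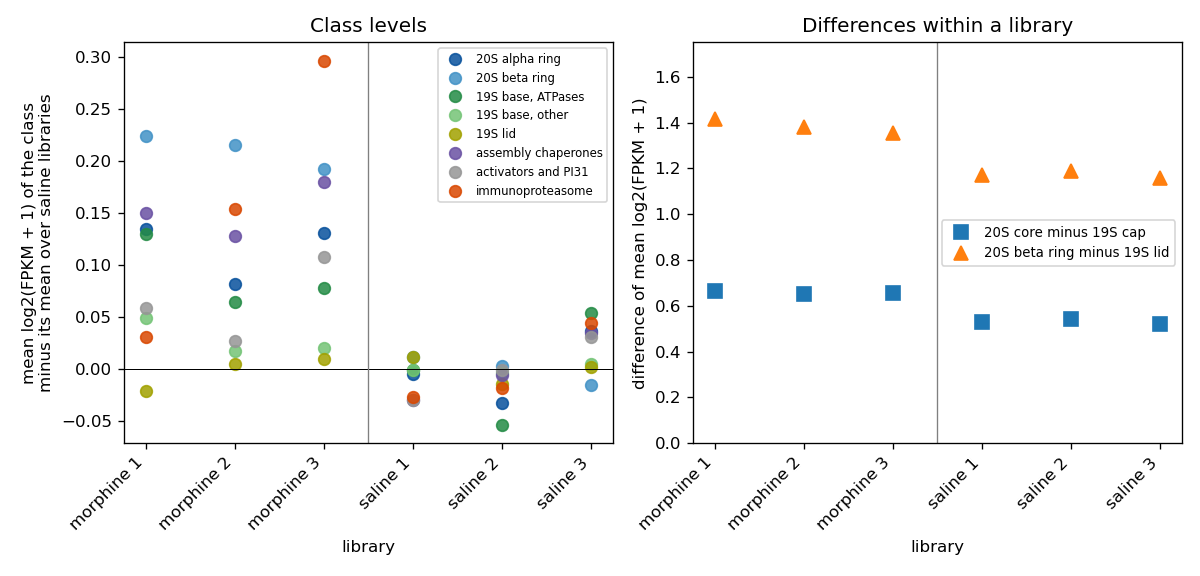
Left, mean log2(FPKM + 1) of each class in each library minus the class mean over saline libraries. Right, the difference in mean log2(FPKM + 1) between 20S core and 19S cap (squares, 0.65 to 0.67 in morphine and 0.52 to 0.54 in saline) and between beta ring and lid (triangles, 1.36 to 1.42 in morphine and 1.16 to 1.19 in saline), with morphine libraries left of the line.

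Fold changes moved with gene length throughout these libraries, and core genes are short. Across 14588 tested genes with an annotated length, Spearman's rho between exonic length and log2 fold change was -0.31, and across the 48 members it was -0.39. Genes share libraries and are not independent replicates, so no p is given. Exonic length had a median of 2335 nt over the core genes, 2820 nt over the cap genes and 4170 nt over all tested genes. The longest annotated transcript had medians of 1220, 1983 and 3189 nt in the same order. With the trend on length removed in each library the median log2 fold change was 0.13 in the core, 0.24 in the immunoproteasome and 0.06 in the cap, and Psmb3 was at 0.25 (limma adjusted p = 0.0654). The part of length in the difference between core and cap was not tested further.

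**Figure D5:**
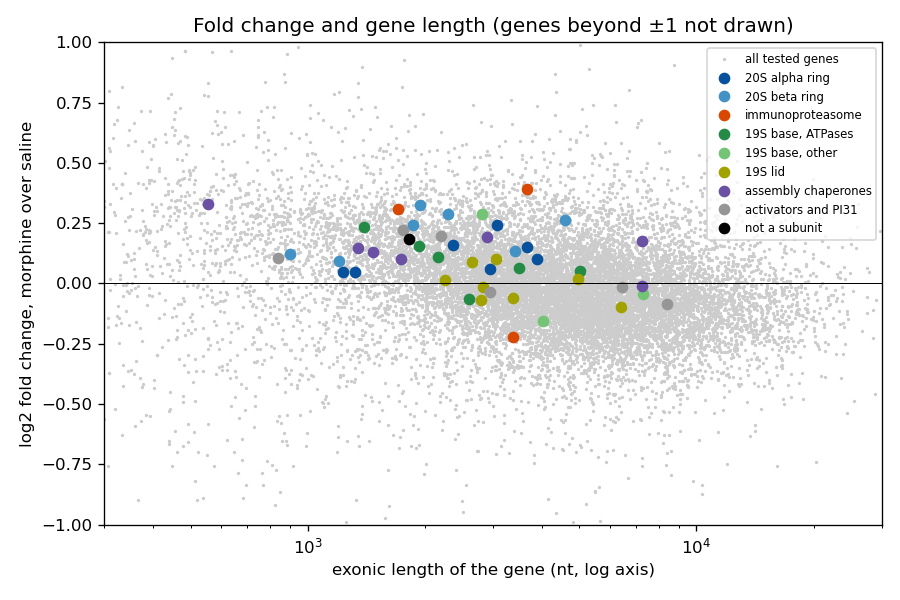
Log2 fold change, morphine over saline, against exonic gene length on a log axis for all tested genes (grey) and for proteasome genes coloured by role. Grey points drift downward with length (Spearman's rho -0.31), and proteasome genes follow a like slope (-0.39), with beta ring genes between 0.09 and 0.33.

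Among assembly chaperones 6 of 7 had a log2 fold change above 0, and 0 passed limma's test, with 1 of 7 at an unadjusted p under 0.05, against 22.3% of all tested genes. Psmg4, which pairs with Psmg3 to build the alpha ring, was at 27.9, 27.8 and 22.0 FPKM in morphine, against 18.5, 21.0 and 21.5 FPKM in saline. Its groups did not overlap, with a gap of 0.53 FPKM, and its log2 fold change was 0.33 (SE 0.11, limma adjusted p = 0.139). Psmg3 was at 22.2 ± 1.88 FPKM in morphine and 19.3 ± 1.67 FPKM in saline (adjusted p = 0.257). The partners Psmg1 and Psmg2 had log2 fold changes of 0.15 and 0.10 with overlap. Of the base chaperones, Psmd9 was at 8.31, 8.77 and 10.1 FPKM in morphine and 7.84, 7.60 and 8.19 FPKM in saline (adjusted p = 0.285), Psmd10 had a log2 fold change of 0.13, and Psmd5 had the largest p of the class at 28.2 ± 2.61 FPKM in morphine and 28.4 ± 1.79 FPKM in saline (adjusted p = 0.956). The median of the 7 chaperones was 0.15, which was 0.03 with TPM and 0.06 with the length trend removed.

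The activators gave 0 calls, and 0 of 6 had an unadjusted p under 0.05 in limma's test, against 22.3% of all tested genes. Psme2 and Psme1 encode the interferon-inducible PA28 ring. Psme2 was at 48.2, 37.9 and 42.1 FPKM in morphine and 31.8, 40.3 and 37.4 FPKM in saline (log2 fold change 0.22, SE 0.12, adjusted p = 0.309). Psme1 was at 41.0, 33.4 and 42.8 FPKM in morphine and 34.5, 30.5 and 36.5 FPKM in saline (adjusted p = 0.338). Both overlapped between groups. Psme2b, annotated as a protein-coding gene, was at 4.60 ± 0.313 FPKM in morphine and 4.21 ± 0.548 FPKM in saline. The division of fragments between Psme2b and Psme2 is uncertain. The nuclear activator Psme3 and the large activator Psme4 had log2 fold changes of -0.04 and -0.09, and the regulator Psmf1 (PI31) had the largest p, at 20.1, 21.1 and 23.1 FPKM in morphine and 23.3, 21.9 and 20.02 FPKM in saline (adjusted p = 0.926). Psmc3ip, the name match outside the complex, was at 2.41, 1.26 and 1.98 FPKM in morphine and 1.30, 1.85 and 1.38 FPKM in saline (adjusted p = 0.569), and shares 385 nt of exonic sequence with Mlx on the opposite strand.

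Proteasome partners outside the name rule were read from lists by role. Of 10 listed partners 9 were tested and 0 passed limma's test, with 3 of 9 at an unadjusted p under 0.05 (22.3% of all tested genes) and a median of 0.09. Ube3c, a ubiquitin ligase bound to the proteasome, was at 15.1 ± 0.527 FPKM in morphine and 18.3 ± 0.985 FPKM in saline (log2 fold change -0.26, adjusted p = 0.0891). Sem1, a small lid subunit, was at 49.7 ± 2.48 FPKM in morphine and 42.7 ± 1.26 FPKM in saline (log2 fold change 0.22, adjusted p = 0.0977). Pomp, which matures the core, was at 189 ± 13.2 FPKM in morphine and 172 ± 8.37 FPKM in saline (adjusted p = 0.304).

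Among genes of ubiquitin supply Rps27a rose. It encodes ubiquitin fused to a ribosomal protein, and was at 646, 601 and 603 FPKM in morphine, against 468, 473 and 485 FPKM in saline (log2 fold change 0.37, limma adjusted p = 0.0453, 0.0317 to 0.152 over the other settings, under 0.05 in 4 of 15). Each library left out other than morphine 2 ended that call, at adjusted p values of 0.103 to 0.152. Rps27a has processed copies, and the division of fragments among them is uncertain.

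Among 10 transcriptional regulators and substrate shuttles 0 passed limma's test, with 3 of 10 at an unadjusted p under 0.05 (22.3% of all tested genes), 9 of 10 below 0 and a median of -0.14. Rad23b, a shuttle that carries ubiquitinated proteins to the cap, was at 39.7 ± 0.867 FPKM in morphine and 44.4 ± 1.70 FPKM in saline (adjusted p = 0.161). Ddi2, the protease that activates Nfe2l1, was at 5.53 ± 0.225 FPKM in morphine and 6.50 ± 0.210 FPKM in saline (adjusted p = 0.174). Nfe2l1 itself was at 96.3, 110 and 121 FPKM in morphine and 125, 108 and 126 FPKM in saline, with overlap (adjusted p = 0.468).

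Other cell type lists gave 1 call. Hbb-bt, a red cell globin, fell to 27.9 ± 4.24 FPKM in morphine, against 65.9 ± 14.7 FPKM in saline (limma adjusted p = 0.0453), and the 4 red cell genes, Hbb-bs and Hba-a1 highest, summed to 419 to 594 FPKM in morphine and 752 to 1057 FPKM in saline. The sums were 36.1 to 47.5 FPKM in morphine and 44.3 to 47.4 FPKM in saline for 6 endothelial genes (Cldn5 and Flt1 highest), 5.93 to 26.2 and 19.2 to 27.1 FPKM for 3 meningeal genes (Dcn and Col1a1 highest), and 1.17 to 1.78 and 0.62 to 1.90 FPKM for 3 muscle genes (Acta1 and Ckm highest). Of the endothelial genes 5 of 6 had a log2 fold change below 0, beside 7765 of 14614 tested genes, and their median was -0.35. In 4 of the 6 (66.7%) all morphine values lay below saline, against 15.7% of all tested genes. Pecam1 was at 3.25 ± 0.581 FPKM in morphine and 5.20 ± 0.101 FPKM in saline (limma adjusted p = 0.0589). For 5 genes each the sums were 2558 to 2810 FPKM in morphine and 2692 to 2909 FPKM in saline in neurons (Snap25 and Nefl highest) and 789 to 1090.0 and 775 to 1012 FPKM in astrocytes (Gfap and Slc1a2). In 3 of the 5 astrocyte genes (60.0%), Aqp4, Slc1a2 and Gja1, all morphine values lay below saline, against 15.7% of all tested genes. Their log2 fold changes were -0.33, -0.16 and -0.08, with adjusted p of 0.134, 0.136 and 0.428 in limma's test. Their part in the proteasome values was not tested.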

How the data were processed

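RNA from lumbar cord of mice given morphine or saline was measured in 3 libraries each, grouped by the sample titles. The authors deposited 1 table of FPKM values with a column for each library and 0 other columns of values. STAR, RSEM, Trimmomatic and bcl2fastq 2.19.0 are named with build mm10, per the submitters' processing notes, and the sources used here do not give other versions, the annotation release or the use of strand. The library kit was stranded, per the labels' protocols.

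GENCODE M21, of the same build, gave positions, lengths (union of exons) and overlaps. Paaf1, listed among the partners, was not analysed here. Genes that reached 1 FPKM in 3 or more libraries were fitted with limma 3.58.1 under R 4.3.3 on log2(FPKM + 1), using an intensity trend and two-sided p-values with Benjamini-Hochberg adjustment over 14614 genes and a threshold of 0.05. Fold changes are on that scale and understate the change of genes near 1 FPKM. For members under that level, a fit of all genes was used. Depth was estimated from genes with 1 annotated transcript of 300 to 1500 nt, as the scale at which values of up to 6 fragments fall nearest to whole numbers: 77.6% to 80.4% were within 0.05 of a whole fragment, or within the table's rounding where that is wider, against 12.7% to 16.9% for evenly spread values. Fragment ranges cover counting alone. Both methods were tested on simulated data. Python 3.11.15, pandas 2.3.3, NumPy 2.4.6, SciPy 1.17.1 and matplotlib 3.10.9 did the rest.

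The members, classes and lists were chosen with earlier results of these data known. Per-library values or group means were printed for members past the threshold, the immunoproteasome genes and their counterparts, the smallest and largest p in each class and members under the filter, and for others chosen after their values were seen. From other lists up to 4 members that passed, or the 2 with the smallest p, were named, besides Pomp, Tap1, Nfe2l1, the microglia, endothelial and astrocyte genes given one by one, Snap25, Mbp, Cd3e and Cd3g, chosen after their values were seen. Some list members, and the list values that need them, are not reported here. Alternatives were another pseudocount, other filters, TPM and quantile scaling, no intensity trend, a replicate block, removal of the length trend by loess in each library (span 0.5, on deviations from the gene's mean), and each library left out.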

Additional observations from a re-analysis of the deposited data

How the results depend on the processing

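Calls depended on settings. Over all tested genes 138 were higher and 82 lower; these counts were 6 and 2 with no filter, 231 and 107 with a minimum of 5 FPKM, 101 and 853 with TPM scaling, 47 and 55 after quantile normalization, 14 and 22 without the intensity trend, 13 and 17 with the length trend removed, and 0 to 531 and 1 to 274 with each library left out. Proteasome genes called higher were 1 in the main analysis and 0 with no filter, TPM scaling, quantile normalization, no intensity trend or the length trend removed. With a minimum of 5 FPKM they were 4 of 44 tested (Psma7, Psmb1, Psmb3 and Psmb6), beside 231 of 10310 genes. They were 0 to 6 with each library left out. The 6 of 48 (Psma7, Psmb1, Psmb3, Psmb10, Psmc5 and Psmd4) came without morphine 2, where 531 of 14614 genes were higher and 274 lower. Proteasome genes called lower were 0 except 1 with TPM scaling, Psmd2, where 853 of 14614 genes were lower.

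Same-numbered libraries of the groups are not stated to be paired, and their deviations from group means correlated at -0.129, 0.161 and 0.295. Morphine 1 correlated better with saline 3 (0.109) than with saline 1. With the replicate block 17 genes were higher and 7 lower, and 6 and 5 with the length trend removed as well, with 0 proteasome genes called in either.

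The median log2 fold change over all members was 0.10; it was -0.020 with TPM, 0.051 after quantile normalization, 0.061 with the length trend removed (with or without the replicate block), and 0.082 to 0.114 with each library left out. In the core (0.14) it was 0.016, 0.071 and 0.128, and 0.136 to 0.172 with each library left out. In the immunoproteasome (0.31) it was 0.185 with TPM, and 0.227 to 0.347 with each library left out. In the cap (0.02) it was -0.109, -0.026 and 0.055, and 0.010 to 0.043 with each library left out. The core median less the cap median was 0.13 in the main analysis, 0.097 after quantile normalization, 0.073 with the length trend removed, and 0.107 to 0.138 with each library left out.

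There were 716 values of single members under other settings. Filters, the intensity trend and the replicate block alone cannot alter a fold change, so those values could not change sign. Of the 716, 47 changed sign, all in genes that did not pass. With TPM these were Psma1 -0.066, Psma3 -0.026, Psma5 -0.080, Psma6 -0.080, Psmb2 -0.033, Psmb5 -0.005, Psmc2 -0.077, Psmc4 -0.018, Psmc6 -0.062, Psmd12 -0.038, Psmd3 -0.109, Psmd7 -0.112, Psmd8 -0.027 and Psmg2 -0.021. After quantile normalization they were Psma5 -0.002, Psma6 -0.031, Psmd3 -0.026 and Psmd7 -0.034. With the length trend removed, with or without the block, they were Psma5 -0.042, Psma6 -0.046, Psmb2 -0.001, Psmd1 0.017, Psmd7 -0.030, Psmd5 0.052, Psme2b -0.007 and Psmf1 0.039. With each library left out, the range spanned 0 in Psma5 (-0.021 to 0.104), Psmd14 (-0.043 to 0.015), Psmd3 (-0.004 to 0.043), Psmd7 (-0.027 to 0.040), Psmd5 (-0.060 to 0.065), Psme3 (-0.099 to 0.024) and Psmf1 (-0.071 to 0.033). The cause was not tested. Low FPKM levels limit what can be read from Psmb8, Psmb9, Psmc3ip, Psma8 and Psmb11.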
